A study of Sus scrofa with 6 samples.

Results

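The genes examined were those of membrane traffic through endosomes, which comprised RAB GTPases, SNARE proteins, sorting nexins, VPS and CHMP proteins and subunits of the clathrin adaptors. They were chosen by symbol alone, as all symbols that begin with VAMP, VPS or CHMP, with RAB, STX, SNAP or SNX followed by a digit, or with AP1 to AP4 followed by a subunit letter, and STXBP was searched for in the same way. This rule found 98 of the 6765 genes on the array. By role these were 26 RAB GTPases, 4 RAB regulators whose symbols begin with RAB3, 16 SNAREs, 14 sorting nexins and 3 retromer subunits. A further 6 were subunits of the tethers HOPS and CORVET, 3 were genes of the GARP tether and its SNARE partners and 2 were VPS13 genes. There were also 6 genes of ESCRT-I, ESCRT-II and VPS4, 6 ESCRT-III genes of the CHMP family and 11 adaptor genes. The remaining symbol, VPS72, matched by name and belongs to chromatin remodelling. The cells were IPEC-J2 and IPEC-1, both untreated, spontaneously immortalised epithelial lines from pig intestine, and each sample was 1 culture on membrane inserts hybridised to 1 Affymetrix porcine array from 500 ng of RNA (3 arrays per cell line). IPEC-J2 was compared with IPEC-1 to find genes whose expression differs between the 2 lines. All cultures received the same medium with fetal calf serum, insulin-transferrin-selenium and epidermal growth factor. The labels give 7 days on the membrane, whereas the methods give a later day. Each group is 1 cell line, so the values describe these lines and not the gut segments they came from.

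RAB GTPases are molecular switches. In the GTP-bound form each of them marks a particular membrane and recruits motors, coats and tethers to it, and exchange factors and GTPase-activating proteins turn the switch on and off. Tethers hold an incoming vesicle at its target, and SNAREs on both membranes then zip together and fuse them. At the endosome, the ESCRT machinery sorts ubiquitinated cargo into vesicles that bud into the lumen on the way to the lysosome, retromer and sorting nexins return cargo to the plasma membrane or the trans-Golgi network, and clathrin adaptors choose cargo for coated vesicles. In intestinal epithelium these routes supply the apical and the basolateral membrane separately, and RAB11A and RAB8A are well known for their part in apical traffic.

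The deposited signals were read as log2 values, with a floor of exactly 4.00 below which nothing was reported. In total, 40.5 to 48.3% of the probe sets lay at the floor on each array, with the highest share on IPEC-J2 replicate 1. This array was also the dimmest, with a 75th percentile of 8.31 where the other 5 arrays lay between 8.51 and 8.56. All 9 epithelial marker genes were above the floor in at least 1 line, with EPCAM at 13.55 in IPEC-J2 and 13.39 in IPEC-1, but CLDN3 stood at 4.00 on each IPEC-1 array. Of the markers of other cells, 3 of 8 were above the floor for fibroblasts and smooth muscle and 3 of 6 for leukocytes. For endothelium it was 1 of 6 and for neurons 2 of 8. PTPRC, DES and CHGA were at the floor on all arrays, but other genes of the same lists were not. TAGLN averaged 6.12 in IPEC-J2 and 9.34 in IPEC-1, and COL1A2 averaged 5.91 in IPEC-J2 and 5.94 in IPEC-1. Of the neuron list, SCG5 averaged 8.60 in IPEC-J2 and 8.50 in IPEC-1. SCG2 of that list differed by 2.03, with 1 IPEC-1 array at the floor. The summed log2 signals of the fibroblast list were 34.9 to 38.3 in IPEC-J2 and 39.4 to 41.7 in IPEC-1, those of the leukocyte list 24.0 to 24.9 in IPEC-J2 and 25.6 to 26.1 in IPEC-1. For the endothelium list they were 24.0 to 24.9 in IPEC-J2 and 25.7 to 25.9 in IPEC-1, and for the neuron list 39.0 to 42.5 in IPEC-J2 and 37.2 to 40.6 in IPEC-1. The sums of the first 3 lists were lower in IPEC-J2 without overlap, each mostly through 1 gene, with differences of -3.22 for TAGLN, -1.93 for CD3E and -1.46 for PECAM1, while the leukocyte markers CD14 and CD79B differed by 0.25 and 0.28. The part of such cells in the differences given here was not tested, and fewer cells of a type and less RNA per cell cannot be told apart.

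IPEC-J2 showed an up-regulation of 6 and a down-regulation of 7 of the 98 genes against IPEC-1 (limma, adjusted p under 0.05, with adjustment over all 6765 genes). These 13 genes were 13.3% of the 98, where 20.7% of all genes on the array were called. All shares of called genes count genes at the floor on every array, which cannot be called. These were 8 of the 98 and 1252 of all 6765. With such genes left out of the fit, 10% of the remaining 90 were called, against 25.8% of the remaining 5513. In the single directions, 6.12% of the 98 were higher, against 9.46% of all genes, and 7.14% were lower, against 11.2% of all genes. The higher genes were STX11, CHMP2A, SNX3, CHMP5, STX8 and CHMP4A, and the lower genes were SNX17, AP3S2, SNAP29, AP3D1, SNX6, VPS52 and RAB3GAP2. A syntaxin was the only one of them with a difference over 2-fold, whereas 515 of the 1401 called genes of the array passed that size. The test that the methods describe, run gene by gene, called 25 of the 98 without adjustment (25.5%, against 30.7% of all genes) and 11 with it (11.2%, against 16.9% of all genes). At an unadjusted p under 0.05 from limma 30 of the 98 passed (30.6%, against 32.8% of all genes). In the other settings listed in the closing section, apart from a block with 1 residual degree of freedom, between 2 and 10 of the 98 genes were called higher and between 4 and 15 lower.

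**Figure D1:**
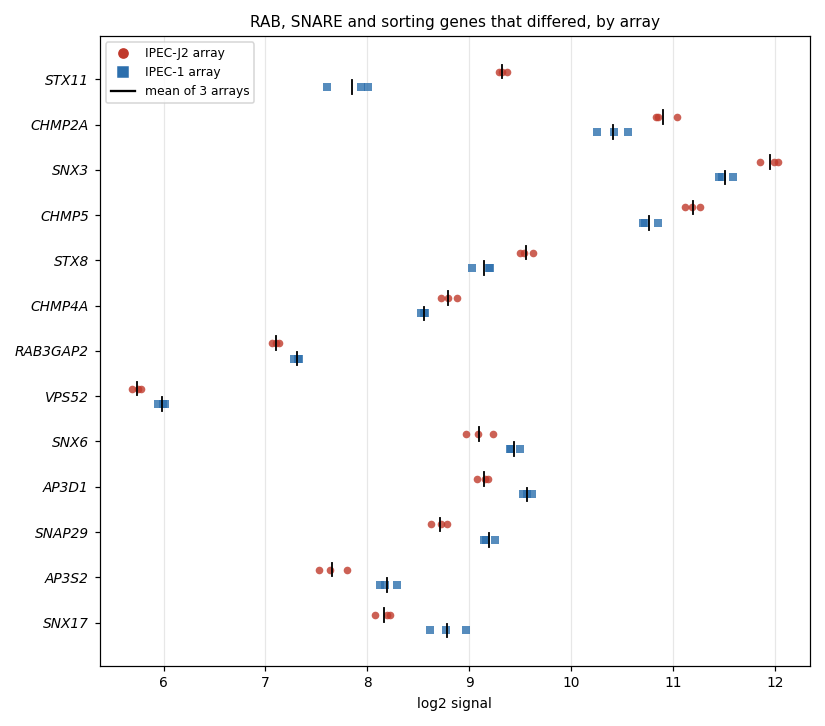
Log2 signal on each array of the 13 genes that differed between the lines, with IPEC-J2 as red circles above IPEC-1 as blue squares and black bars for the mean of 3 arrays. The arrays of the lines do not overlap for any of the 13 genes, and STX11 shows the widest gap (9.33 and 7.85). Signals of different genes come from different probes and are not to be compared with each other.

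Most of these genes were measured with little difference between the lines. Of the 98 genes, 90 were above the floor on some array and 8 were at the floor on all 6, namely RAB3A, RAB15, RAB26, SNAP25, SNX30, SNAP91, VPS37D and VPS53. The median log2 difference of the 90 measured genes was -0.05, and that of all 5513 measured genes was also -0.05. Without the dim IPEC-J2 replicate 1 these medians were 0.04 and 0.02, on the other side of 0. The 95% confidence interval of the difference lay within 1 log2 unit on either side of 0 for 62 of the 90 genes (68.9%), against 2960 of all measured genes (53.7%). It lay within 0.5 for 29 of the 90 (32.2%), against 1077 of all (19.5%). The averages of 9 of the 90 genes include a probe set at the floor on all arrays, which narrows their intervals. The intervals of the other 28 measured genes reached beyond 2-fold in at least 1 direction. The spread between cultures was somewhat narrower, with a median SD of 0.172 for the 90 genes and 0.214 for all measured genes. All 3 arrays of one line lay above those of the other for 34 of the 98 genes (34.7%), against 38.7% of all genes, and 21 of these 34 did not pass the limma test.

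**Figure D2:**
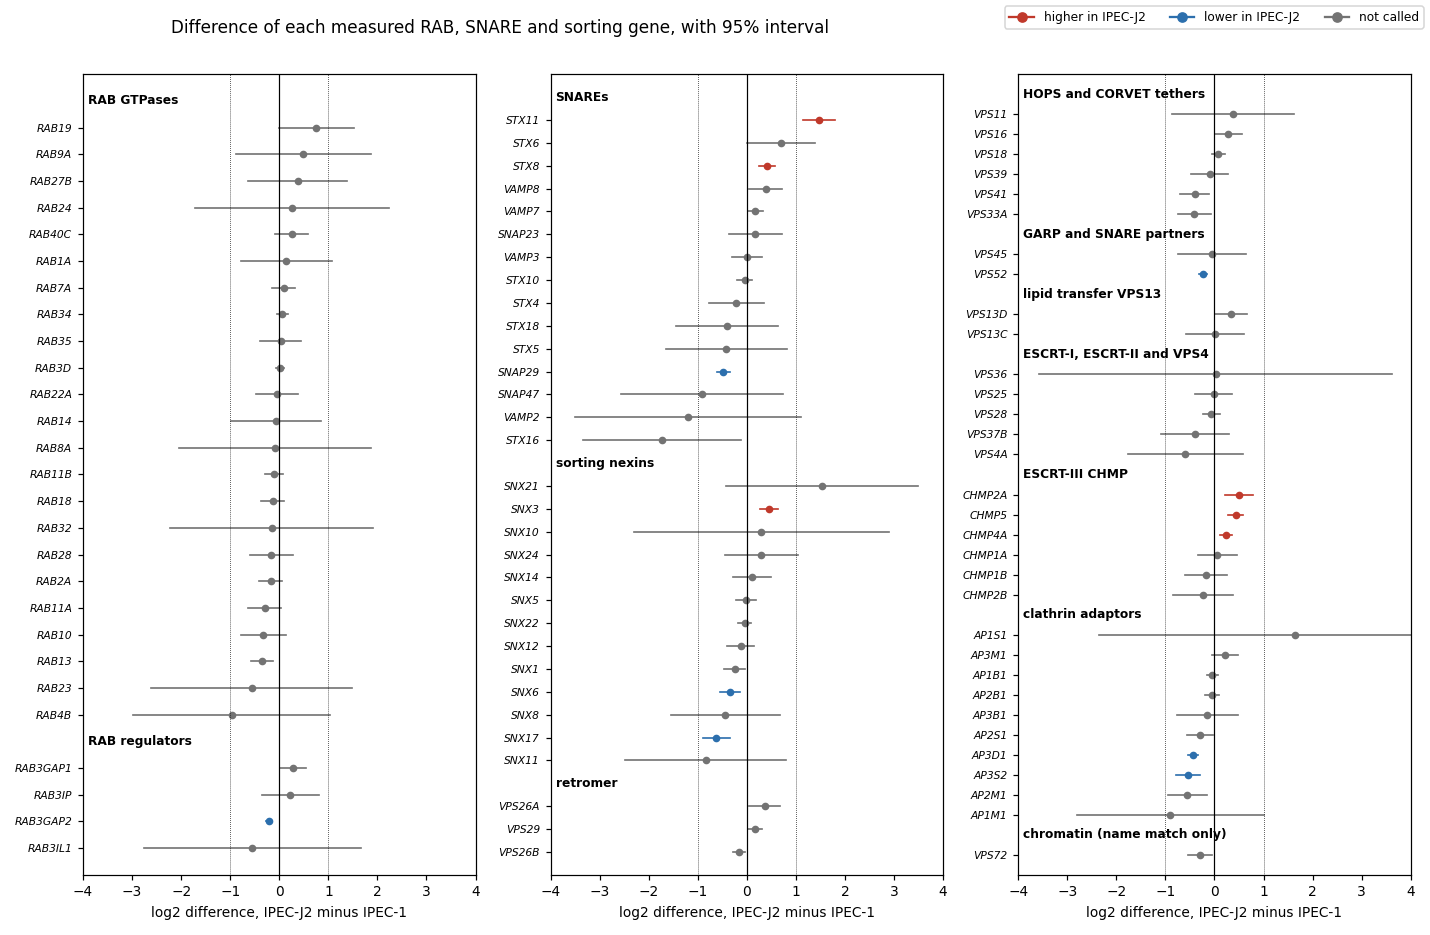
Log2 difference of each of the 90 measured genes, IPEC-J2 minus IPEC-1, with its 95% confidence interval from limma, grouped by role, with red for genes higher in IPEC-J2, blue for lower and grey for genes that were not called. Dotted lines mark 1 log2 unit, which is 2-fold. No RAB GTPase is coloured, 62 intervals lie within the dotted lines, and the interval of AP1S1 is cut at the right edge.

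None of the 26 RAB GTPases was called by limma (against 20.7% of all genes), and 23 of them were above the floor. At an unadjusted p under 0.05 from limma 1 of the 26 passed, RAB13 (against 32.8% of all genes), and the methods' own test called 0 after adjustment and 1 without it. The differences ranged between -0.97 and 0.75 with a median of -0.07 (0.06 without IPEC-J2 replicate 1), and for 14 of the 23 the confidence interval lay within 1 log2 unit of 0. RAB13, which acts in traffic to tight junctions, had log2 signals of 10.65, 10.49 and 10.74 in IPEC-J2, against 10.91, 10.96 and 11.07 in IPEC-1. Every IPEC-J2 array was below every IPEC-1 array, with a difference of -0.35 (95% confidence interval -0.58 to -0.13, adjusted p = 0.0507, and 0.0412 to 0.0499 in the 4 other limma fits that called it). RAB11A, the GTPase of recycling endosomes, had 11.06, 11.39 and 11.10 in IPEC-J2, against 11.43, 11.37 and 11.65 in IPEC-1. Its arrays overlapped between the lines, and the difference of -0.30 did not pass (interval -0.64 to 0.04, adjusted p = 0.199). RAB7A, which governs late endosomes and their fusion with lysosomes, had 10.13, 10.43 and 10.29 in IPEC-J2 and 10.24, 10.22 and 10.13 in IPEC-1, a difference of 0.09 (interval -0.15 to 0.32). The interval of RAB7A lay within 0.5 of 0 on the log2 scale.

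Other RAB GTPases were measured less precisely. RAB8A, which acts in apical exocytosis, had 6.38, 6.84 and 5.13 in IPEC-J2 and 5.07, 6.70 and 6.85 in IPEC-1, with an interval of -2.04 to 1.86. Of its 2 probe sets, 1 was at the floor on 1 array of each line. The other was above the floor on all arrays and differed by 0.01 (SE 0.184). RAB4B, a GTPase of early endosomes, had 4.00, 6.46 and 6.19 in IPEC-J2 and 6.35, 6.74 and 6.48 in IPEC-1. The low mean of RAB4B in IPEC-J2 rested on replicate 1, which stood at the floor. IPEC-J2 replicate 1 was the lowest of the 6 arrays for 13 of the 23 measured RAB GTPases (56.5%), against 34.0% of all measured genes, and for 42 of the 90 genes (46.7%). Without this array the calls of CHMP2A, SNX17, SNX6 and STX8 ended. SNX21, VAMP2, VAMP7, VPS26A and VPS33A were then called in addition, and no RAB GTPase was. Of the 77 measured genes that were not called with all arrays, 8 changed sign. What made the array dim was not tested, and counts with 1 array left out are given in the closing section. RAB19 had 6.39, 5.56 and 5.50 in IPEC-J2 and 4.94, 5.03 and 5.22 in IPEC-1. Its difference of 0.75 did not pass over the mean of 2 probe sets (adjusted p = 0.158), and neither probe set was called when tested alone among all probe sets (0.85 with adjusted p = 0.0570, and 0.65 with adjusted p = 0.707, the second at 4.00 on each IPEC-1 array). In 7 of 20 other settings between 1 and 3 RAB GTPases were called, with RAB19 and RAB24 higher and RAB13 lower when only the brightest probe set of each gene was used.

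Of the 4 RAB regulators whose symbols begin with RAB3, 1 was lower (25% called, against 20.7% of all genes). RAB3GAP1 and RAB3GAP2 are the catalytic and the noncatalytic subunit of a complex that acts as a GTPase-activating protein on RAB3 and as an exchange factor on RAB18. RAB3GAP2 had log2 signals of 7.06, 7.10 and 7.14 in IPEC-J2, against 7.28, 7.32 and 7.33 in IPEC-1. The lines did not overlap, and the difference was -0.21 (SE 0.0256, adjusted p = 0.00977 from limma), and it was -0.14 and -0.26 within the culture notes called A and B here, 2 notes of the sample descriptions that 1 array of either line shares. Of its 3 probe sets, 1 was at the floor throughout, and the others had differences of -0.32 and -0.30. Without the floor probe set the difference of the mean was -0.31 and was not called (adjusted p = 0.0598). RAB3GAP2 was no longer called with arrays centred on their 75th percentile (adjusted p = 0.293). RAB3GAP1 had 9.31, 9.58 and 9.46 in IPEC-J2 and 9.05, 9.17 and 9.29 in IPEC-1, and its difference of 0.28 did not pass (adjusted p = 0.136, and 0.0497 with arrays centred on their 75th percentile).

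Among 17 further genes of RAB regulation and prenylation with a value, 1 was higher and 3 were lower (23.5%, against 20.7% of all genes). OPTN, which encodes the RAB8 effector optineurin, averaged 10.35 ± 0.08 in IPEC-J2 and 9.55 ± 0.20 in IPEC-1 (SD, n = 3 each) and was 1.74-fold higher (adjusted p = 0.0164). The RAB GTPase-activating protein TBC1D17 was 1.55-fold lower, RABAC1, a prenylated RAB acceptor, 1.43-fold lower and GDI2, which extracts RABs from membranes, 1.07-fold lower. None of these 4 calls held with each array left out in turn, and the adjusted p then reached 0.0694 for OPTN, 0.139 for TBC1D17, 0.111 for RABAC1 and 0.133 for GDI2.

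No subunit of HOPS or CORVET, the tethers of late and early endosomes, was called by limma, although 3 of the 6 passed at an unadjusted p under 0.05 (against 20.7% of all genes called and 32.8% at that unadjusted p), and the methods' own test called 0 after adjustment and 2 without it. VPS41, a HOPS subunit, had log2 signals of 9.27, 9.56 and 9.44 in IPEC-J2, against 9.67, 9.90 and 9.92 in IPEC-1. VPS33A, the SM protein of these tethers, which guides SNARE assembly, had 7.78, 8.18 and 8.16 in IPEC-J2, against 8.49, 8.41 and 8.45 in IPEC-1. Both had all IPEC-J2 arrays below all IPEC-1 arrays, with a difference of -0.41 each (adjusted p = 0.0733 and 0.0987). The core subunit VPS16 lay on the other side, with 8.27, 8.50 and 8.47 in IPEC-J2, against 7.99, 8.14 and 8.26 in IPEC-1 (difference 0.28, adjusted p = 0.136). Quantile normalization called all 3 of these genes (adjusted p = 0.0412 for VPS41, 0.00367 for VPS33A and 0.0435 for VPS16), and other settings called VPS41 in 2, VPS33A in 4 and VPS16 in 1 further limma fits. VPS52, a subunit of the GARP and EARP tethers at the trans-Golgi network and on recycling endosomes, was lower, with 5.69, 5.75 and 5.78 in IPEC-J2, against 5.95, 6.01 and 5.99 in IPEC-1. The difference of this mean was -0.24 (SE 0.0313, adjusted p = 0.0112), -0.17 within note A and -0.32 within note B. Of its 3 probe sets 2 were at the floor on all arrays, and the measured one averaged 9.23 in IPEC-J2 and 9.95 in IPEC-1, a difference of -0.72 (adjusted p = 0.0173 among all probe sets). VPS52 was not called with arrays centred on their 75th percentile (adjusted p = 0.184).

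Of 18 further subunits of exocyst, GARP, COG and TRAPP with a value, 2 were higher and 3 lower (27.8%, against 20.7% of all genes). The TRAPP subunits TRAPPC4 and TRAPPC5 were 1.49-fold and 1.47-fold higher (adjusted p = 0.000713 and 0.000742). TRAPPC4 averaged 7.94 ± 0.02 in IPEC-J2 and 7.36 ± 0.05 in IPEC-1, and TRAPPC5 averaged 10.61 ± 0.03 in IPEC-J2 and 10.05 ± 0.04 in IPEC-1 (SD, n = 3 each). In contrast, TRAPPC12, another TRAPP subunit, and COG8, a subunit of the Golgi tether COG, stood at 4.00 on each IPEC-J2 array and averaged 7.06 ± 0.21 and 6.14 ± 0.07 in IPEC-1 (SD, n = 3 each; adjusted p = 0.000382 and 5.9e-05). No fold is given for them, because both means lie below 7.78, the level under which 95% of lone signals fell in IPEC-J2 (probe sets above the floor on 1 array of the line only). This level is one of single probe sets. COG8 is a mean over 2 probe sets, and their single signals are not given here, so 1 of them may lie above it. Arrays at the floor have no spread, so the adjusted p of TRAPPC12 and COG8 does not measure the spread between IPEC-J2 cultures. EXOC2, an exocyst subunit, averaged 9.83 ± 0.07 in IPEC-J2 and 10.65 ± 0.21 in IPEC-1 (SD, n = 3 each) and was 1.76-fold lower (adjusted p = 0.0159, but 0.0686 at most with 1 array left out). The calls of the 2 TRAPP subunits that were higher, of TRAPPC12 and of COG8 held with each array left out in turn.

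Of the 16 SNAREs, IPEC-J2 showed higher signals for 2 and a lower signal for 1 (18.8% called, against 20.7% of all genes). STX11 is a syntaxin best known for the fusion of cytotoxic granules in lymphocytes. It had log2 signals of 9.29, 9.37 and 9.32 in IPEC-J2, against 7.94, 8.01 and 7.60 in IPEC-1. The lines were far apart in comparison to the spread of the cultures, and STX11 was 2.78-fold higher in IPEC-J2 (difference 1.48, SE 0.123, 95% confidence interval 1.15 to 1.80, adjusted p = 0.00368 from limma). The 2 arrays of note A differed by 1.38 and those of note B by 1.28. STX11 was measured by a single probe set. Of the leukocyte markers, PTPRC stood at 4.00 on all 6 arrays and CD3E on each IPEC-J2 array, while CD3E averaged 5.93 in IPEC-1. In contrast, CD14 and CD79B stood at 4.00 on each IPEC-1 array and averaged 4.25 and 4.28 in IPEC-J2, each with 2 arrays at the floor. The part of such cells in the STX11 signal was not tested. STX8, a Q-SNARE of late endosomes, had 9.54, 9.50 and 9.63 in IPEC-J2, against 9.20, 9.20 and 9.03 in IPEC-1. STX8 was 1.33-fold higher (difference 0.41, SE 0.0640, adjusted p = 0.0177), its 2 probe sets had the same difference of 0.41, and the call ended without IPEC-J2 replicate 1 (0.0540) or replicate 3 (0.0634).

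SNAP29, a soluble SNARE that serves many fusion steps including that of autophagosomes with lysosomes, was lower in IPEC-J2. Its log2 signals were 8.63, 8.78 and 8.72 in IPEC-J2, against 9.25, 9.15 and 9.17 in IPEC-1, a 1.39-fold lower level (difference -0.48, SE 0.0508, adjusted p = 0.00682). The difference was -0.53 within note A and -0.52 within note B, and it passed with each array left out in turn. VTI1B, which pairs with STX8 and STX7 in late endosomal fusion, was found in the list of other SNAREs. It was 1.62-fold lower, with 10.01, 10.05 and 9.99 in IPEC-J2, against 10.72, 10.77 and 10.64 in IPEC-1 (adjusted p = 0.00132). Thus STX8 and VTI1B, known partners in a SNARE complex, differed in opposite directions.

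The R-SNAREs of endosomes and the plasma membrane did not pass the test with all arrays as deposited. VAMP8, a SNARE of late endosomes and of secretory granules in epithelia, had log2 signals of 11.99, 12.04 and 11.94 in IPEC-J2, against 11.44, 11.86 and 11.52 in IPEC-1 (difference 0.38, adjusted p = 0.114). All its IPEC-J2 arrays lay above those of IPEC-1. VAMP7, which serves lysosomes and apical delivery, also did not overlap, with 9.12, 9.29 and 9.31 in IPEC-J2, against 9.07, 9.04 and 9.09 in IPEC-1 (difference 0.17, adjusted p = 0.124). VAMP3, the R-SNARE of recycling endosomes, had 10.19, 10.41 and 10.22 in IPEC-J2 and 10.11, 10.25 and 10.45 in IPEC-1, with a difference of 0.00 and an interval of -0.30 to 0.31. VAMP2, a close relative of VAMP3, was at the floor on IPEC-J2 replicate 1 and had 6.77 and 6.65 on the other IPEC-J2 arrays, against 6.99, 7.03 and 6.98 in IPEC-1. Its difference was -1.19 with all arrays (adjusted p = 0.456) and -0.29 without that replicate (adjusted p = 0.0373), so that 1 array decided both size and call. STX16, a syntaxin of the trans-Golgi network, had 4.00, 5.84 and 4.00 in IPEC-J2, against 6.56, 6.06 and 6.41 in IPEC-1 (difference -1.73, adjusted p = 0.129). All 3 IPEC-J2 arrays of STX16 were below those of IPEC-1, with 2 of them at the floor, and all signals were below 7.78. STX6, another syntaxin of this compartment, had 8.04, 8.74 and 8.54 in IPEC-J2, against 7.86, 7.41 and 7.97 in IPEC-1 (difference 0.69, adjusted p = 0.149). Of these genes, quantile normalization called VAMP7 (0.00367), STX16 (0.0226) and STX6 (0.0482). Calls were also made without IPEC-J2 replicate 1 for VAMP7 (0.0111), without IPEC-J2 replicate 2 for STX16 (0.0115) and without IPEC-1 replicate 2 for VAMP8 (0.0145). STX6 was also called with centring on the 75th percentile and over probe sets above the floor on all arrays. VAMP7 and VAMP2 were also called without the dimmest array with centring, and VAMP7 and VAMP8 by the methods' t-test without adjustment. Among 18 further SNAREs and genes of SNARE disassembly with a value, 1 was higher and 3 were lower (22.2%, against 20.7% of all genes). SCAMP1, a membrane protein of secretory carriers, was 1.95-fold higher, although its adjusted p was 0.0504 without IPEC-J2 replicate 2. The SM protein SCFD1 was 1.63-fold lower (adjusted p = 0.00625), and BNIP1, a SNARE of the endoplasmic reticulum, was 1.74-fold lower but not called in any of the 6 fits with 1 array left out (adjusted p 0.0537 to 0.113).

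Of the 14 sorting nexins, 1 was higher and 2 were lower (21.4% called, against 20.7% of all genes). SNX3, which binds the endosomal lipid PI3P and works with retromer in recycling, had log2 signals of 11.85, 12.03 and 11.99 in IPEC-J2, against 11.48, 11.45 and 11.59 in IPEC-1. It was 1.37-fold higher (difference 0.45, SE 0.0660, adjusted p = 0.0154). Leaving out IPEC-1 replicate 1 (0.0575), IPEC-1 replicate 2 (0.0537) or IPEC-J2 replicate 3 (0.0665) ended this call. SNX17, the cargo adaptor of the retriever pathway that recycles integrins and receptors of the LDL receptor family, was lower, with 8.08, 8.22 and 8.20 in IPEC-J2, against 8.62, 8.97 and 8.77 in IPEC-1. It was 1.54-fold lower (difference -0.62, SE 0.106, adjusted p = 0.0224), and its 2 probe sets gave -0.72 and -0.52. The difference was -0.42 within note A and -0.89 within note B, which holds the dim array. The SNX17 call ended without IPEC-1 replicate 3 (0.0763) and without IPEC-J2 replicates 1 (0.0677), 2 (0.0671) or 3 (0.0810).

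SNX6 and its partners SNX1 and SNX5 form the membrane-bending dimers that carry cargo to the trans-Golgi network. SNX6 had log2 signals of 8.97, 9.23 and 9.09 in IPEC-J2, against 9.40, 9.41 and 9.50 in IPEC-1 and was 1.27-fold lower (difference -0.34, SE 0.0783, adjusted p = 0.0471). Its 4 probe sets gave differences of -0.68, -0.62, -0.10 and 0.02, and none was called alone among all probe sets. The SNX6 call held only without IPEC-J2 replicate 2 when 1 array was left out, with an adjusted p of 0.0746 to 0.150 in the other 5 fits. SNX1 had 9.80, 9.89 and 9.79 in IPEC-J2, against 9.97, 10.23 and 10.03 in IPEC-1 (difference -0.25, adjusted p = 0.111), and SNX5 differed by -0.02, the mean of probe sets at -0.25 and 0.22. SNX22 differed by -0.04, with an interval of -0.17 to 0.09. The sorting nexins SNX21 and SNX8 were at the floor in 1 line. SNX21 was at 4.00 on each IPEC-1 array, and in IPEC-J2 it was at 4.00, 6.36 and 6.23. It did not pass with all arrays (adjusted p = 0.243), but without the dim IPEC-J2 replicate 1 its adjusted p was 0.000535. The IPEC-1 arrays at the floor have no spread, so these p-values do not measure the spread between IPEC-1 cultures. No fold is given, since the SNX21 signals lie below 7.85, the level of lone signals in IPEC-1. SNX8 was at 4.00 on each IPEC-J2 array and at 5.32, 4.00 and 4.00 in IPEC-1, a difference that rests on 1 array.

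Retromer was measured by VPS26A, VPS26B and VPS29, and VPS35 was not analysed here. None of the 3 was called by limma (against 20.7% of all genes), all 3 had an unadjusted p under 0.05 (against 32.8%), and the methods' own test called 0 after adjustment and 3 without it. VPS26A had log2 signals of 8.47, 8.74 and 8.89 in IPEC-J2, against 8.35, 8.34 and 8.32 in IPEC-1 (difference 0.36, adjusted p = 0.113), and was called with the brightest probe set, quantile normalization, centring on the 75th percentile and without IPEC-J2 replicate 1 (adjusted p 0.0159 to 0.0247). VPS29 had 11.15, 11.25 and 11.26 in IPEC-J2, against 11.14, 11.04 and 10.99 in IPEC-1 (difference 0.16, adjusted p = 0.115). The paralog VPS26B, which takes the place of VPS26A in some retromer complexes, lay on the other side of 0, with 6.00, 6.10 and 5.98 in IPEC-J2, against 6.21, 6.22 and 6.14 in IPEC-1 (difference -0.16, adjusted p = 0.0674). Of its 2 probe sets 1 was at the floor on all arrays, and the measured one averaged 8.05 in IPEC-J2 and 8.38 in IPEC-1, a difference of -0.33. VPS26B was called with the culture note as a random block (0.0471) and without IPEC-J2 replicate 2 (0.0403). In all 3 genes the arrays of the lines did not overlap, as for 38.7% of all genes. Each interval lay within 1 log2 unit of 0, as for 53.7% of all measured genes.

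The ESCRT-III subunits of the CHMP family polymerise into the filaments that cut the neck of the budding vesicle. Of the 6 genes, 3 were higher and 0 lower, where 9.46% of all genes were higher. CHMP2A, a late-acting subunit, had log2 signals of 11.04, 10.83 and 10.85 in IPEC-J2, against 10.42, 10.56 and 10.25 in IPEC-1. It was 1.41-fold higher (difference 0.50, SE 0.107, adjusted p = 0.0402), by 0.43 within note A and 0.48 within note B. CHMP5, which recruits the VPS4 cofactor LIP5, had 11.12, 11.19 and 11.27 in IPEC-J2, against 10.73, 10.71 and 10.85 in IPEC-1, and was 1.35-fold higher (difference 0.43, SE 0.0587, adjusted p = 0.0128). CHMP4A, a member of the main filament-forming family, had 8.72, 8.79 and 8.88 in IPEC-J2, against 8.53, 8.57 and 8.56 in IPEC-1, and was 1.18-fold higher (difference 0.24, SE 0.0457, adjusted p = 0.0283). In these 3 genes no array of IPEC-J2 fell to the level of any IPEC-1 array, and the differences were small. CHMP2A was not called in any of the 6 fits with 1 array left out (adjusted p 0.0507 to 0.114), CHMP5 was not without IPEC-J2 replicate 2 (0.0503), and CHMP4A was called only without IPEC-J2 replicates 1 or 3 (0.0811 to 0.0932 in the other 4 fits).

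The other CHMP genes overlapped between the lines. CHMP1A had a difference of 0.06 (interval -0.34 to 0.45), CHMP1B of -0.17 (-0.59 to 0.26) and CHMP2B, the paralog of CHMP2A, of -0.24 (-0.84 to 0.37). Of the 6 genes of ESCRT-I, ESCRT-II and VPS4, 0 were called by limma (against 20.7% of all genes). An unadjusted p under 0.05 from limma was reached by 0 of them (against 32.8%). The counts with the methods' own test were also 0 (against 16.9% of all genes with adjustment and 30.7% without). VPS37D, 1 of the 6, was at the floor on all arrays. VPS25, an ESCRT-II subunit, had 9.88, 9.70 and 9.85 in IPEC-J2 and 9.63, 10.09 and 9.76 in IPEC-1, and VPS28, a core subunit of ESCRT-I, had 7.00, 6.92 and 6.92 in IPEC-J2 and 6.97, 7.13 and 6.94 in IPEC-1. The interval of VPS25 was -0.39 to 0.36, and VPS28 differed by -0.13 (SE 0.128) in its measured probe set, with its other probe set at the floor throughout. That of VPS36 ran between -3.57 and 3.62, with 1 array of either line at the floor. Among 27 further genes of ESCRT and endosomal sorting with a value, 2 were higher and 3 lower (18.5%, against 20.7% of all genes). The phosphoinositide phosphatase MTMR2 was 2.70-fold higher (adjusted p = 0.00927) and the clathrin adaptor GGA1 1.70-fold higher (0.0281). IST1, which regulates ESCRT-III, was 1.54-fold lower (0.00863), PIK3C3, the lipid kinase that makes PI3P, 1.50-fold lower (0.0198) and the ubiquitin-binding adaptor TOLLIP 1.17-fold lower (0.0330). MTMR2, which removes PI3P, and PIK3C3, which makes it, thus differed in opposite directions. With 1 array left out, MTMR2 and IST1 remained called in all 6 fits, PIK3C3 in 2, and GGA1 and TOLLIP in 1 each.

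The heterotetrameric adaptor AP-3 carries cargo from endosomes and the trans-Golgi network to lysosomes and related organelles. AP3D1, its delta subunit, had log2 signals of 9.08, 9.16 and 9.19 in IPEC-J2, against 9.53, 9.57 and 9.62 in IPEC-1. It was 1.35-fold lower (difference -0.43, SE 0.0383, adjusted p = 0.00451), -0.35 within note A and -0.49 within note B, and remained called with each array left out in turn. Its 2 probe sets had log2 differences of -0.40 and -0.46 (adjusted p = 0.00455 and 0.0255 among all probe sets). AP3S2, a small sigma subunit, had 7.53, 7.81 and 7.63 in IPEC-J2, against 8.13, 8.30 and 8.17 in IPEC-1 and was 1.46-fold lower (difference -0.54, SE 0.0906, adjusted p = 0.0213). Its 2 probe sets gave -0.57 and -0.51, and the call ended without any 1 of the IPEC-1 arrays (0.0555 to 0.0710) or without IPEC-J2 replicate 3 (0.0845). The other AP-3 subunits did not pass: AP3B1, a large beta subunit, differed by -0.14 and AP3M1, a medium subunit, by 0.21.

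The adaptor AP-2, which gathers cargo into clathrin-coated pits at the plasma membrane, was called in its medium subunit under some settings only. AP2M1 had log2 signals of 10.91, 11.33 and 10.97 in IPEC-J2, against 11.77, 11.49 and 11.60 in IPEC-1 (difference -0.55, interval -0.94 to -0.16, adjusted p = 0.0697). It was called with quantile normalization (0.0326), centring on the 75th percentile (0.0373), the culture note as a random block (0.0471), the mean over probe sets above the floor on all arrays (0.0212) and without IPEC-J2 replicate 2 (0.0385). All its IPEC-J2 arrays were below those of IPEC-1, and so were those of the small subunit AP2S1, with 9.70, 9.63 and 9.45 in IPEC-J2, against 9.82, 10.04 and 9.82 in IPEC-1 (difference -0.30, adjusted p = 0.113). The beta subunit AP2B1 differed by -0.05, with an interval of -0.20 to 0.09. AP1S1, a small subunit of AP-1, had 8.89, 8.79 and 8.67 in IPEC-J2 and 8.73, 8.69 and 4.00 in IPEC-1, and its difference of 1.64 rests on that 1 array at the floor. Among 15 further genes of clathrin, adaptors and cargo receptors with a value, 1 was higher and 1 was lower (13.3%, against 20.7% of all genes). BIN1 and EHD4, both of which bind and shape endocytic membranes, had differences of 1.57 and -0.42 (adjusted p = 0.00677 and 0.0178). With 1 array left out, BIN1 remained called in all 6 fits and EHD4 in 3 (up to 0.0651).

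**Figure D3:**
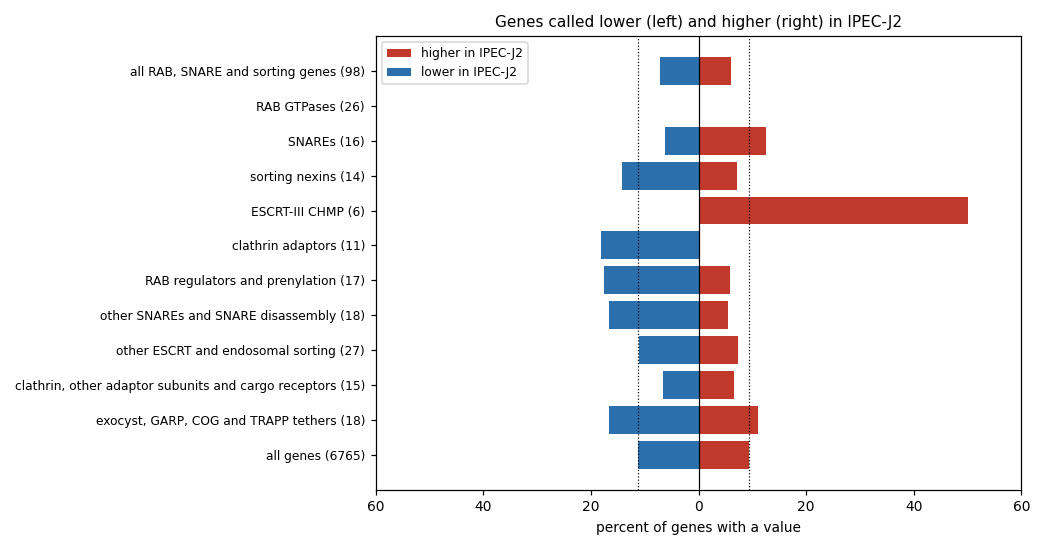
Share in percent of the genes with a value that limma called lower in IPEC-J2 (blue bars to the left) or higher (red bars to the right), with the number of genes in brackets and dotted lines at the share of all genes (11.2% lower, 9.46% higher). The RAB GTPases have no bar, and the ESCRT-III genes have 3 of 6 higher.

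In total, 95 further genes of these pathways had a value, and IPEC-J2 showed higher signals for 7 of them and lower signals for 13 (21.1%, against 20.7% of all genes). The 13 called genes of the 98 kept their direction within both culture notes and in all settings that were run. Their arrays do not overlap between the lines. The direction within the notes and with 1 array left out was therefore fixed and adds no separate support. With 1 array left out in turn, 5 of the 13 genes passed in all 6 fits, namely STX11, AP3D1, SNAP29, RAB3GAP2 and VPS52. The share of all called genes that did so is not given here. The means of RAB3GAP2 and VPS52 include probe sets at the floor on all arrays. Both calls ended with centring on the 75th percentile, with genes at the floor left out and with trend and robust options.

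Genes with several probe sets showed how far the mean over probe sets carried the result. The 98 genes were covered by 154 probe sets, of which 108 were above the floor on all arrays, 27 on some and 19 on none. For 44 genes there was more than 1 probe set, and none of these had one probe set higher by over 0.5 and another lower by over 0.5 on the log2 scale. In RAB24, whose product has been linked to autophagy, the mean differed by 0.26, while the probe set above the floor on all arrays differed by 0.51 (adjusted p = 0.0683 among all probe sets). All 24 genes with a probe set at the floor on some but not all arrays were among the 85 that were not called. Paralogs such as RAB11A and RAB11B or VAMP2 and VAMP3 are alike in sequence, and whether their probe sets share signal was not tested. VPS72, the chromatin gene that only shares the prefix, had a difference of -0.30 (adjusted p = 0.0928), and leaving it out changed neither count of calls.

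**Figure D4:**
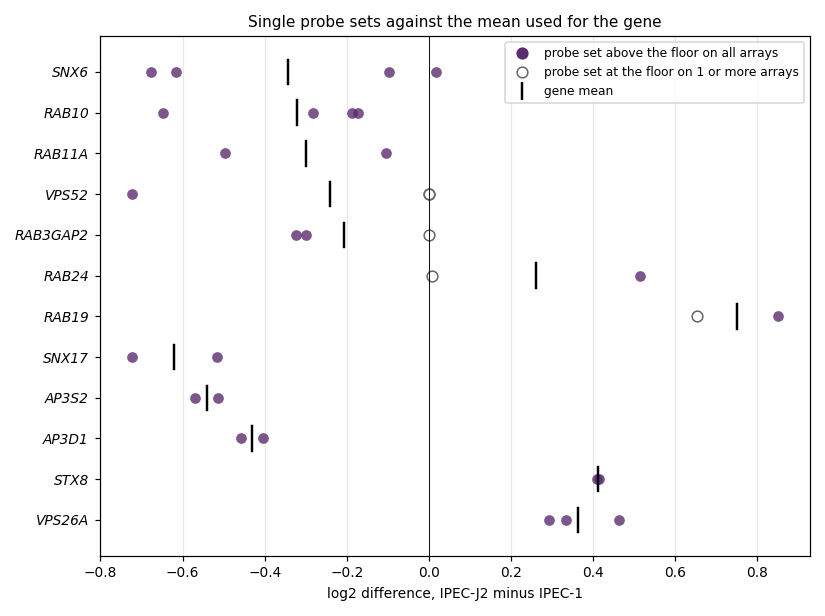
Log2 difference, IPEC-J2 minus IPEC-1, of each probe set of 12 genes with several probe sets (filled circles above the floor on all arrays, open circles at the floor on 1 or more), with a black bar for the mean used for the gene. SNX6 spreads between -0.68 and 0.02 over 4 probe sets, and the mean of VPS52 (-0.24) includes 2 probe sets at the floor, whereas both probe sets of STX8 lie at 0.41. The genes plotted were chosen after their values had been seen.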

How the data were processed

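Total RNA of 3 cultures each of IPEC-J2 and IPEC-1 was hybridised to 6 arrays, and the sample labels gave the line and the replicate number. The authors deposited 1 log2 signal per probe set and array, for which the submitters' notes name GCOS 1.1.1 and PLIER, and replicates were not pooled. The methods describe global scaling in GCOS, then background correction, normalization and summary of probe sets, without naming the base of the log or which of these steps made the deposited values. A floor of exactly 4.00, the log2 of 16, led to their being taken as log2, and no further normalization was applied. Of 24123 probe sets, 124 controls were left out, and 10069 of the other 23999 had 1 gene symbol in the platform annotation, 198 had several and 13732 were unnamed here. Of those with several symbols, 5 name a gene of the kind examined and were not used. Signals were averaged per symbol to 6765 genes, of which 1252 were at the floor on every array. Of the 98 genes, 97 were matched to the RefSeq gene table under the same symbol. No sequences were used. The methods describe the arrays as independent experiments, so p-values measure the spread between cultures. The labels name 1 cell bank number for IPEC-J2 and IPEC-1, whereas the methods name a different one for each.

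IPEC-J2 was set against IPEC-1 with lmFit and eBayes of limma 3.58.1 (R 4.3.3), with no block, and p-values were adjusted by Benjamini-Hochberg over 6765 genes, with a threshold of 0.05. A fold is the antilog of a difference of mean log2 signals. With 3 arrays per line, 0.1 is the smallest p of an exact permutation test. The number of arrays limits the precision. The genes and the 5 lists of further pathway genes were chosen with earlier results of these data known. Genes were named by rule: up to 12 called genes per direction, genes at the floor on all arrays of 1 line, the 2 brightest genes of each family, and up to 3 called genes per direction of the other lists. Other genes, such as RAB7A, RAB8A, RAB19, VAMP2, VAMP7, STX6, STX16 and VPS41, were picked for naming with their values in view.

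Alternatives were to use only the brightest probe set of a gene, to normalize by quantiles, to centre arrays on their 75th percentile, to remove genes at the floor, to add an offset of 16 on the linear scale, to let eBayes fit a trend robustly, to run the methods' t-test (adjusted or not), to block on the replicate number or on the culture note (random or fixed), and to leave out each array. Chosen after seeing the data were 2 rules for probe sets at the floor, the fit without the dimmest array with centring, and the omission of VPS72.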

Additional observations from a re-analysis of the deposited data

How the results depend on the processing

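The 13 genes called among the 98 kept their direction under each alternative. Leaving out an array could not have changed it, since their arrays do not overlap between the lines. Of the 77 measured genes that were not called, 28 changed sign under at least 1 alternative, among them AP3B1 (-0.14, and 0.09 without IPEC-J2 replicate 1) and CHMP1A (0.06, and -0.08 without IPEC-J2 replicate 2), and none was called with the changed sign. The median difference of the 90 measured genes lay between -0.14 and 0.04 with 1 array left out and that of the RAB GTPases between -0.22 and 0.06. The genes called higher and lower among the 98 were 6 and 7 in the reported fit. The higher genes numbered 10 with the brightest probe set per gene, 10 with quantile normalization and 10 with the methods' t-test without adjustment. The lower genes numbered 12 with quantile normalization, 15 with the methods' t-test without adjustment, 11 over probe sets above the floor on all arrays, and 4 each with genes at the floor left out and with trend and robust options. Leaving out 1 array gave 3 to 7 higher and 4 to 10 lower genes. Over all genes, 640 were higher and 761 lower, with 355 to 613 and 417 to 572 when 1 array was left out, and 1154 were lower with the methods' t-test without adjustment. The 95 further pathway genes had 7 higher and 13 lower, 12 higher with the brightest probe set, 13 and 21 with the methods' t-test without adjustment, and 5 to 8 higher and 6 to 11 lower with 1 array left out. The causes were not tested.

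Samples of the same replicate number did not deviate together (correlations of -0.06, -0.11 and 0.06), so the numbers give no pairing. The pairs that share a culture note had correlations of 0.06 (note A) and 0.17 (note B). Pairs that share neither had -0.11 to 0.09. With the replicate number as a block, which leaves 2 residual degrees of freedom, 272 genes were higher and 324 lower over all genes, 2 and 5 among the 98, and 2 and 8 among the further pathway genes. Of the 13 calls, AP3D1, AP3S2, CHMP5, RAB3GAP2, STX11 and VPS52 remained. With culture notes A and B as a fixed block, 4 arrays and 1 residual degree of freedom were left, and limma called 0 higher and 0 lower genes over all genes, 0 among the 98 and 0 among the further genes, where 1541 genes and 19 of the 98 had an unadjusted p under 0.05. With the note as a random block, at an estimated correlation of 0.21, all 13 calls remained, and AP2M1, RAB13 and VPS26B were called in addition.

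Centring on the 75th percentile ended the calls of CHMP2A, CHMP4A, RAB3GAP2 and VPS52, leaving out genes at the floor or using trend and robust options those of CHMP4A, RAB3GAP2, SNX6 and VPS52, and quantile normalization that of CHMP2A. Leaving probe sets at the floor out of the mean ended those of CHMP4A, RAB3GAP2 and SNX6. Signals at the floor carry no order, which limits what can be said of the 24 genes with a probe set at the floor on some arrays.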
